A study of Mus musculus with 8 samples.

Results

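Chemokine signalling genes around Cxcl12 were examined on 8 2-colour expression arrays of cultured mouse hippocampal neurons. The set holds 5 genes, the receptors Ackr3 and Cxcr4 and the ligands Cxcl12, Cxcl14 and Cx3cl1. It was defined as every non-control probe whose transcript identifier maps through RefSeq to 1 of these symbols, which gave 6 of 39429 probes, 2 of them for Cxcl12. All 5 genes were among the 15019 named genes, and the 21116 genes or unnamed transcripts (features), that entered the fit. The genes were chosen by their measured log2 differences between the groups of this same comparison, so their values are given as a description and carry no test.

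Neurons of dissociated hippocampus were infected with lentivirus on day 10 of culture and kept for 6 days, 4 samples with GFP and 4 with Flag-Nr4a1, an epitope-tagged form of an orphan nuclear receptor that neuronal activity induces. Culture RNA was labelled with Cy5 and hybridised against the same commercial reference RNA, Universal Mouse Reference, labelled with Cy3 on every array, without dye swaps. Each array carried a pair tag, and replicates 1 to 4 denote the 4 pairs of 1 GFP and 1 Nr4a1 array, of which replicate 4 forms batch 2. The labels name neither the promoter driving the transgenes nor the infected share of cells, and do not say whether pairs came from separate dissections, so the spread may be partly technical.

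CXCL12 is a secreted chemokine that signals through the G-protein-coupled receptor CXCR4. ACKR3 binds the same ligand without the classical G-protein coupling, recruits arrestins and removes CXCL12 from the extracellular space, and so sets how much ligand reaches CXCR4. In the hippocampus this system is known for guiding granule cell progenitors, Cajal-Retzius cells and interneurons. CXCL14 is a related chemokine made by some interneurons, and CX3CL1 (fractalkine) is a membrane-anchored neuronal chemokine whose receptor CX3CR1 is found on microglia.

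The promoters of both receptors and of Cxcl14 are shown because NR4A receptors bind DNA as monomers at the element AAAGGTCA (NBRE), which contains the nuclear receptor half-site AGGTCA. Each line gives the 150 bases before the transcript start that the promoter table uses, on the gene's strand, 5′ to 3′, from RefSeq (GRCm38.p6). For Cxcl14 that start lies 260 bases inside the outer boundary of the gene, so the stretch shown is within the annotated gene, while for the receptors the start is the boundary. Capitals mark the half-site or the TATA motif TATAAA on either strand. Positions are chr1:90203830-90203979 on the plus strand for Ackr3, chr1:128592300-128592449 on the minus strand for Cxcr4 and chr13:56296552-56296701 on the minus strand for Cxcl14.
Ackr3: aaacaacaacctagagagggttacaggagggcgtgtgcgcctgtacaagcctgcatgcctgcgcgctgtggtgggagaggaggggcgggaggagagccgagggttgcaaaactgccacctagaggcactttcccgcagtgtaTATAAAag
Cxcr4: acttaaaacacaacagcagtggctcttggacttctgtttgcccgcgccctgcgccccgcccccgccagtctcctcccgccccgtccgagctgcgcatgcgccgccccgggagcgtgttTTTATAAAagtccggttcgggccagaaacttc
Cxcl14: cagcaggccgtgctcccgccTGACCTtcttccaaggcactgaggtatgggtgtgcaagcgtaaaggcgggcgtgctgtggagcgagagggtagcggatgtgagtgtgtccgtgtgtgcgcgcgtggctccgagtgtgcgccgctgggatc

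All 5 genes had a promoter entry, and motifs were searched on both strands from 250 bases before to 50 bases after the start. The NBRE was in 0 of the 5, against 1.51% of 32851 promoters of the same length. The half-site was in 1 of 5, Cxcl14, 130 bases before the start used, and so within the annotated gene, on the reverse strand as TGACCT, against 16.3% of all promoters. TATAAA, a motif added after the sequences were seen, was in 3 of 5 (Ackr3, Cxcr4 and Cx3cl1), against 13.6% of all promoters, and in Cxcr4 the forward match overlaps a reverse match (TTTATA). It began 30 bases before the annotated start in Cxcr4, 8 in Ackr3 and 6 in Cx3cl1. The base composition of the 300-base windows also varied within the set. The GC content was 54.0% for Ackr3, 59.3% for Cxcr4, 62.7% for Cxcl14 and 64.7% for Cxcl12 and for Cx3cl1, against a median of 52.7% over all promoters. The observed over expected number of CpGs was 0.37 for Ackr3, close to the median of 0.38, and 0.62 to 0.77 for the other four.

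Levels are log2 ratios of culture RNA over reference RNA, so -1 stands for a level of 0.5 times the reference. Differences are Nr4a1 minus GFP within pairs, with the limma standard error. Over all features, 2714 of 21116 (12.9%) were called higher and 2433 (11.5%) lower on the Nr4a1 arrays, at a Benjamini-Hochberg adjusted p under 0.05 in limma with the pair as a block. Of 21055 features with a value on every array, all 4 Nr4a1 arrays lay above all 4 GFP arrays in 2663 (12.6%) and below them in 2466 (11.7%). The 4 GFP arrays were on slide 1, Nr4a1 replicates 1 to 3 on slide 2 and Nr4a1 replicate 4 on slide 3, so no slide held both groups and no difference within a slide could be computed. With slide as a random block, 8 features were called higher and 4 lower.

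The delivered gene was read as a check of the labels. The Nr4a1 probe A_51_P239654 gave -2.06, -2.12, -1.90 and -2.49 on GFP replicates 1 to 4 and -1.32, -2.49, -1.20 and -2.37 on Nr4a1 replicates 1 to 4. The groups overlapped, with replicates 1 and 3 clearly higher, replicate 4 slightly higher and replicate 2 lower in the Nr4a1-labelled culture. Its difference was 0.30 ± 0.15 (SE, n = 4) with a limma adjusted p of 0.193. It passed the test without replicate 2 (0.52, limma adjusted p = 0.00632) and with median centring (0.40, limma adjusted p = 0.0167). The sources do not place the probe relative to the delivered sequence, so the groups are named as the arrays labelled Nr4a1 and GFP.

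Ackr3 was the gene of the set that differed most. Its single probe, A_52_P675395 (gene 12778, chr1:90203980-90215724), read -0.55, -0.52, -0.51 and -0.31 on GFP replicates 1 to 4. On Nr4a1 replicates 1 to 4 it read -2.12, -2.15, -2.22 and -2.01. Every Nr4a1 array was below every GFP array, and the gap between the closest arrays of the groups was 1.46, several times the spread within either group. Group means were -0.47 ± 0.11 for GFP and -2.13 ± 0.088 for Nr4a1 (SD, n = 4). The difference was -1.65 ± 0.059 (SE, n = 4), a level 3.15-fold lower on the Nr4a1 arrays. Pair differences were -1.57, -1.64, -1.71 and -1.70 for replicates 1 to 4, so batch 2, which is the pair of replicate 4, lay within the range of batch 1. With slide as a random block the difference was -1.67, but no slide held both groups, so this fit cannot remove a slide difference. By absolute size the Ackr3 difference ranked 34 among all features, and 4 among falls of named genes. These ranks describe a gene that was chosen by this same difference. Against the reference, Ackr3 RNA went from 1.39-fold below to 4.37-fold below.

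The scanner signals placed this difference in the culture channel. The Cy5 signal of the Ackr3 probe was 879, 1065, 943 and 870.5 on the GFP arrays and 242, 267, 259 and 203 on the Nr4a1 arrays, over local backgrounds of 27.5 to 32. The reference channel differed far less, at 1046 to 1190 on the GFP arrays and 940 to 1034 on the Nr4a1 arrays. It was slightly lower on every Nr4a1 array. The probe was well above background in both channels on all of them, so the lower level on the Nr4a1 arrays was a measured signal and not a bound.

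Cxcr4, the signalling receptor for CXCL12, was also lower, by a smaller amount and at low signal. Probe A_52_P585124 (gene 12767, chr1:128588199-128592299) gave -1.36, -1.43, -1.23 and -1.03 on GFP replicates 1 to 4 and -2.12, -2.22, -1.85 and -2.08 on Nr4a1 replicates 1 to 4. The groups did not overlap, with a gap of 0.42. Means were -1.26 ± 0.18 and -2.07 ± 0.16 (SD, n = 4), and the difference was -0.81 ± 0.075 (SE, n = 4), or 1.75-fold lower. All 4 pairs went down, by 0.76, 0.79, 0.62 and 1.05 on the log2 scale for replicates 1 to 4, with the largest fall in the pair of batch 2.

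The Cxcr4 probe was dim, and the size of its difference varied with the processing setting. Its Cy5 signal was 140, 174, 161.5 and 170 on the GFP arrays and 91.5, 78, 139 and 70 on the Nr4a1 arrays, over backgrounds of 26.5 to 32.5, while Cy3 read 380 to 467. It was well above background on 4 of 4 GFP arrays and 3 of 4 Nr4a1 arrays. The difference was -1.12 with a normexp offset of 10 in place of 50, -1.62 with Agilent's processed ratio, -0.87 with slide as a random block and -0.42 with all spots kept in the background correction. Its direction was the same under all 15 other settings that gave a value. The slide block cannot remove a slide difference, and the cause of the shifts in size was not tested.

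**Figure D1:**
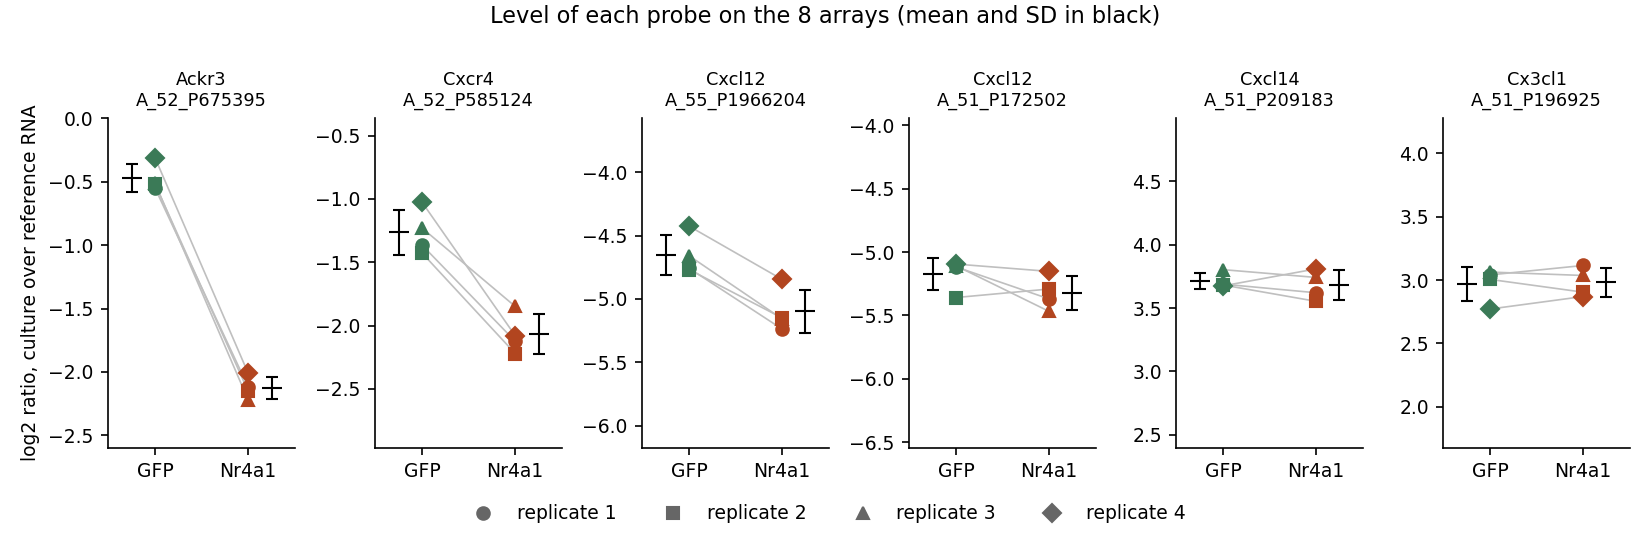
Log2 ratio of culture over reference RNA for each of the 6 probes on the 8 arrays, GFP on the left and Nr4a1 on the right of each panel, with lines joining pairs, a marker shape per replicate and black bars for mean and SD (n = 4). Panels share the same span of log2 units but not the same start. All 4 lines fall for Ackr3 (difference -1.65), Cxcr4 (-0.81) and the second Cxcl12 probe (-0.45), while those of the other probes cross or lie flat.

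Cxcl12, the ligand shared by both receptors, had levels far below the reference and a small difference that depended on the probe. Both probes lie in gene 20315 (chr6:117168535-117181368) and are annotated to different RefSeq transcripts of it. The brighter one, A_51_P172502, read -5.12, -5.36, -5.11 and -5.10 on GFP replicates 1 to 4 and -5.37, -5.29, -5.47 and -5.15 on Nr4a1 replicates 1 to 4. Here the groups overlapped, and the difference was -0.15 ± 0.077 (SE, n = 4) with pair differences of -0.25, 0.067, -0.36 and -0.058. The other, A_55_P1966204, read -4.76, -4.77, -4.66 and -4.42 on GFP replicates 1 to 4 and -5.24, -5.15, -5.16 and -4.85 on Nr4a1 replicates 1 to 4. For this probe all 4 Nr4a1 arrays were lower, with a gap of 0.079 between the groups. Its difference was -0.45 ± 0.058 (SE, n = 4), 1.36-fold lower, and its pair differences ran from -0.50 to -0.38.

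Both Cxcl12 probes were far below the reference, 36.0-fold and 25.1-fold in the GFP cultures. Cy5 signals were 265.5 to 350 for the brighter probe and 157 to 286.5 for the other, against Cy3 signals of 9616.5 to 10765 and 5430 to 6133. All 8 arrays were well above background in Cy5 for both probes. The brighter probe was higher than GFP with all spots kept in the background correction (0.084), and it is not in the authors' deposited value table, where the other probe differed by -0.44. The difference between the probes was not tested, and the deposited files used here hold no probe sequences.

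Cxcl14 was well above the reference and differed little between the groups. Probe A_51_P209183 (gene 57266, chr13:56288643-56296811) read 3.69, 3.68, 3.80 and 3.68 on GFP replicates 1 to 4 and 3.62, 3.55, 3.74 and 3.81 on Nr4a1 replicates 1 to 4. The groups overlapped, and the difference of -0.031 ± 0.064 (SE, n = 4) was under the spread within the groups (SD 0.061 and 0.12). In 3 pairs it was slightly lower and in that of replicate 4 it was higher, by 0.13. Its level was 13.1-fold over the reference in GFP cultures and 12.8-fold over it in Nr4a1 cultures.

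Cx3cl1 also differed by less than the spread between arrays. Probe A_51_P196925 (gene 20312, chr8:94772180-94782427) read 3.04, 3.00, 3.06 and 2.77 on GFP replicates 1 to 4 and 3.11, 2.90, 3.04 and 2.87 on Nr4a1 replicates 1 to 4. The difference was 0.011 ± 0.062 (SE, n = 4), with 2 pairs higher and 2 lower. Replicate 4 was the lowest array of both groups. Cx3cl1 RNA was 7.83-fold over the reference in GFP cultures and 7.90-fold over it in Nr4a1 cultures. Its Cy5 signal of 34175 to 64952 was the strongest of the set, and no spot was marked as saturated.

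**Figure D2:**
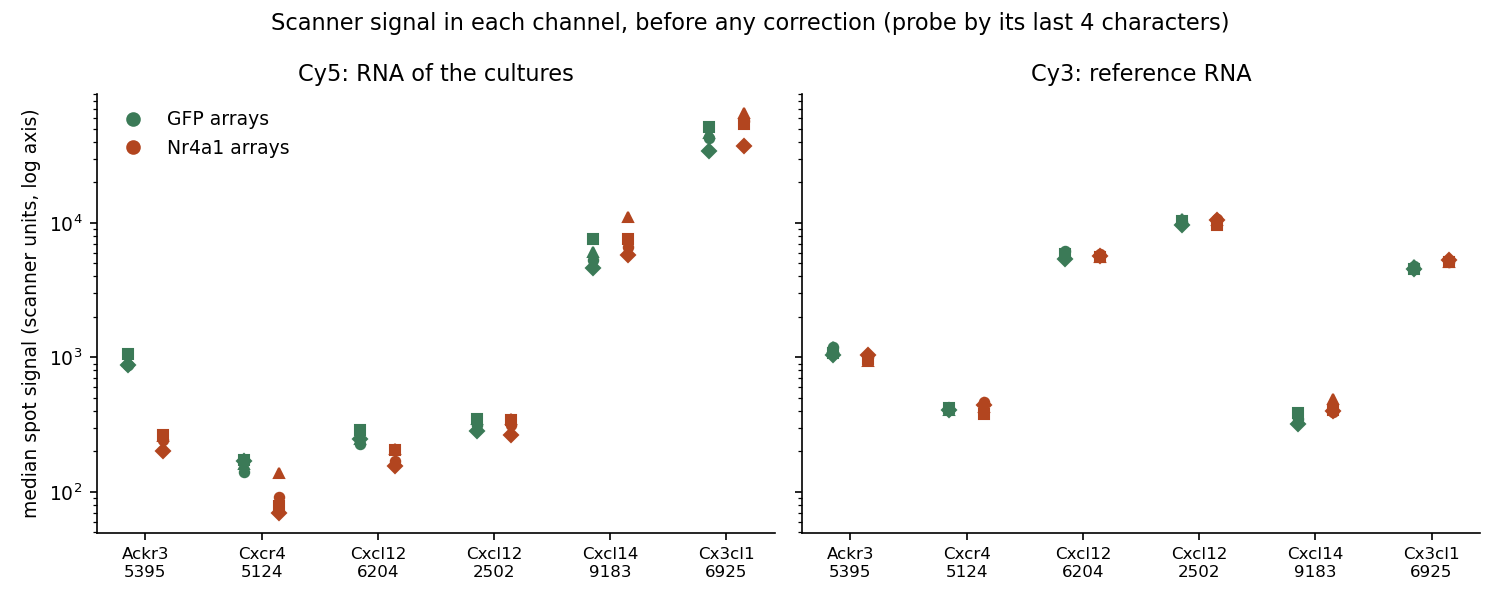
Median spot signal of each probe (labelled by gene and by the last characters of the probe name) in the Cy5 channel, which holds culture RNA, and the Cy3 channel, which holds reference RNA, on a log axis, with 1 point per array and the same marker shapes per replicate as in the plot of levels. The Ackr3 points of the groups separate widely in Cy5 (870.5 to 1065 against 203 to 267). In Cy3 they lie close together without overlap (1046 to 1190 against 940 to 1034). Cxcr4 lies near the bottom of the Cy5 range on the Nr4a1 arrays, at 70 to 139.

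The direction and rough size of the Ackr3 difference were kept under 16 other settings, from -2.05 with Agilent's processed ratio to -1.43 with all spots kept. Among these settings, the random slide block cannot remove a slide difference, since no slide held both groups. For Cxcr4 the range was -1.62 to -0.42. The remaining genes crossed 0 under at least 1 setting, with ranges of -0.44 to 0.084 for Cxcl12, -0.27 to 0.23 for Cxcl14 and -0.045 to 0.17 for Cx3cl1. The Cxcl12 range mixes probes, as the -0.44 is A_55_P1966204 in the authors' deposited table and the 0.084 is A_51_P172502. Taken alone, A_55_P1966204 was lower under every set of values computed, from -0.60 with Agilent's processed ratio to -0.11 with all spots kept. Leaving out any 1 pair moved none of the differences of the receptors by as much as 0.1.

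**Figure D3:**
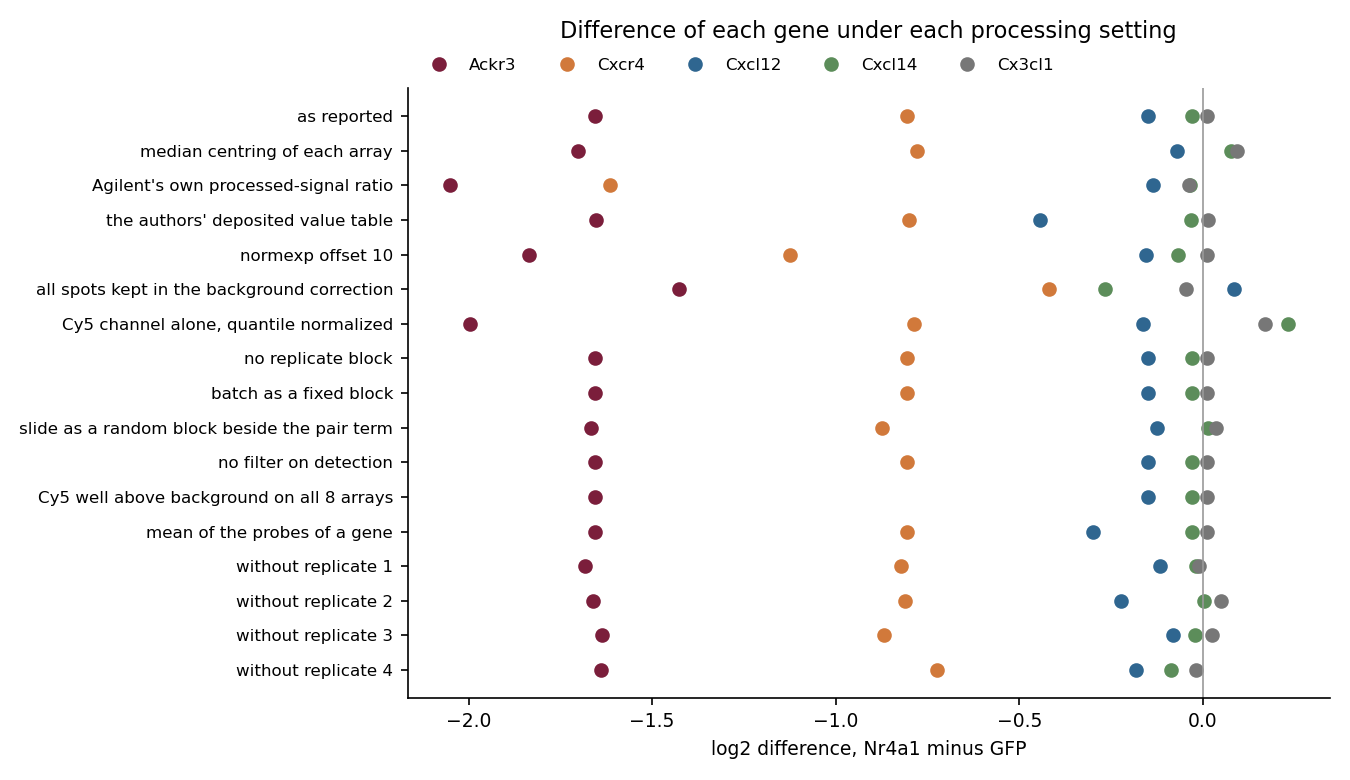
Log2 difference (Nr4a1 minus GFP) of the 5 genes on the x axis under the reported setting (top) and each alternative (rows). Ackr3 stays between -2.05 and -1.43. Cxcr4 spreads from -1.62 to -0.42 and has no value where Cy5 had to be well above background on all 8 arrays. The ligands lie nearer 0, the lowest being Cxcl12 at -0.44 with the authors' table, where its second probe stands in.

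Of 13 genes for other ligands of ACKR3 or CXCR4 and their partners, 10 could be tested. In limma 0 of them were called in either direction, against 12.9% higher and 11.5% lower among all features. Their differences ran from -0.17 to 0.16. Adm, which encodes adrenomedullin, a peptide that ACKR3 takes up, differed by 0.0094 ± 0.081 (SE, n = 4), and Penk, the precursor of enkephalins that also bind ACKR3, by 0.0021 ± 0.071. Mif, a cytokine that binds CXCR4, differed by -0.053 ± 0.076. Cxcl11, the second chemokine ligand of ACKR3, had no probe on the array.

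Of 34 genes for other chemokine ligands, 33 were on the array and 16 entered the test. Among the 17 left out, 14 were not well above background in Cy5 on any array. In limma, 1 of the 16 was called higher (6.25%) and 2 lower (12.5%), against 12.9% and 11.5% of all features. Ccl17, a chemokine that attracts T cells through CCR4 and is made by some hippocampal neurons, fell by 0.37 ± 0.059 (SE, n = 4, adjusted p = 0.00152). Ccl27a, a skin-associated chemokine, fell by 0.24 ± 0.064 (adjusted p = 0.0227), and Cxcl5, a neutrophil chemokine, rose by 0.26 ± 0.064 (adjusted p = 0.0163). Ccl27a was not called without replicate 2 (-0.19), 3 (-0.23) or 4 (-0.25), and Cxcl5 was not called without replicate 2 (0.22) or 3 (0.24). Both calls were also lost without the pair block, with batch in place of the pair and with Agilent's processed ratio, and that of Ccl27a with median centring. Cxcl10, an interferon-induced chemokine, differed by 0.17 ± 0.058 with an adjusted p of 0.0617.

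Among the other chemokine receptors, 6 of 22 could be tested and 1 was called, lower (16.7%, against 11.5% of all features). It was Ackr1, an atypical receptor that binds many chemokines and is best known from red cells and venules, at -0.39 ± 0.064 (SE, n = 4, limma adjusted p = 0.00195). It was not called with Agilent's processed ratio. Cxcr3, a receptor that shares CXCL11 with ACKR3, was well above background in Cy5 on 0 of 8 arrays and in Cy3 on 8 of 8. Cx3cr1, the receptor for CX3CL1, had 2 probes, well above background on 1 and 0 of the 8 arrays, so the receptor partner of Cx3cl1 was not measured here.

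Genes that couple such receptors to G proteins and arrestins moved in both directions. All 26 were tested, and 2 were called higher (7.69%) and 6 lower (23.1%), against 12.9% and 11.5% of all features. The median difference was -0.0027 against -0.0035 over all features. Rgs14, a regulator of G-protein signalling typical of CA2 neurons, fell by 0.97 ± 0.065 (SE, n = 4, limma adjusted p = 7.01e-06). Both beta-arrestins, which ACKR3 and CXCR4 recruit, were lower, Arrb1 by 0.38 ± 0.059 (adjusted p = 0.00132) and Arrb2 by 0.39 ± 0.090 (adjusted p = 0.0113). The receptor kinase Grk3 differed by -0.54 ± 0.083 (adjusted p = 0.00119). Gnb4, a G-protein beta subunit, rose by 1.09 ± 0.074 (adjusted p = 7.72e-06), and Rgs12 by 0.37 ± 0.059 (adjusted p = 0.00144). Arrb2 was not called with Agilent's processed ratio.

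CXCR4 effectors were called at 7 higher (17.5%) and 5 lower (12.5%) of 40 tested, against 12.9% and 11.5% of all features. Jak2, a kinase of cytokine receptors, rose by 1.16 ± 0.067 (SE, n = 4, limma adjusted p = 2.45e-06) and was the largest change of the list. Dock1, an activator of the GTPase Rac, rose by 0.54 ± 0.076 (adjusted p = 0.000708), the PI3-kinase regulatory subunit gene Pik3r1 by 0.33 and the phosphatase gene Ptpn11 by 0.30. The kinase genes Pak1, Pik3cb and Ptk2b fell by 0.40, 0.39 and 0.24. Ptk2b was not called without replicate 1 (-0.20) or 2 (-0.23), with median centring or without the pair block. Ptpn11 was not called with Agilent's processed ratio. Of 22 receptor trafficking genes, 2 were called higher (9.09%) and 0 lower, against the same shares of all features. They were Cltc, the clathrin heavy chain, at 0.43 ± 0.085 (adjusted p = 0.00532) and the deubiquitinase gene Usp8 at 0.42 ± 0.064 (adjusted p = 0.00123).

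Enzymes and proteoglycans that process chemokines or present them on heparan sulphate were called at 8 higher and 6 lower of 36 tested. These are 22.2% and 16.7%, against 12.9% and 11.5% of all features. Hs6st2, which adds 6-O-sulphate to heparan sulphate, rose by 1.48 ± 0.091 (SE, n = 4, limma adjusted p = 3.78e-06), and the heparanase gene Hpse by 0.69 ± 0.061 (adjusted p = 4.16e-05), where a second probe differed by 0.15. Glce, the heparan sulphate epimerase, rose by 0.47 and carboxypeptidase E (Cpe) by 0.51. Hs3st2, a heparan 3-O-sulphotransferase of neurons, fell by 0.63 ± 0.076 (adjusted p = 0.000289). Timp3, an inhibitor of metalloproteinases, fell by 0.50, the metalloproteinase gene Mmp3 by 0.45 and the neuronal syndecan gene Sdc3 by 0.40. Mmp3 was well above background on 3 of 4 Nr4a1 arrays. The Hs3st2 call was lost with Agilent's processed ratio and that of Cpe with Cy5 signals alone.

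Over all 7 lists, 20 of 156 tested genes were called higher (12.8%) and 20 lower (12.8%), near the shares of all features. Of the 40 called genes, 36 were not called with all spots kept in the background correction, 40 were not with slide as a random block, and 20 kept their call under every other setting. Among called genes of the pathway and marker lists, 13 had several tested probes, and for 2, Cdc42 and Sp8, another probe differed in the opposite direction.

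**Figure D4:**
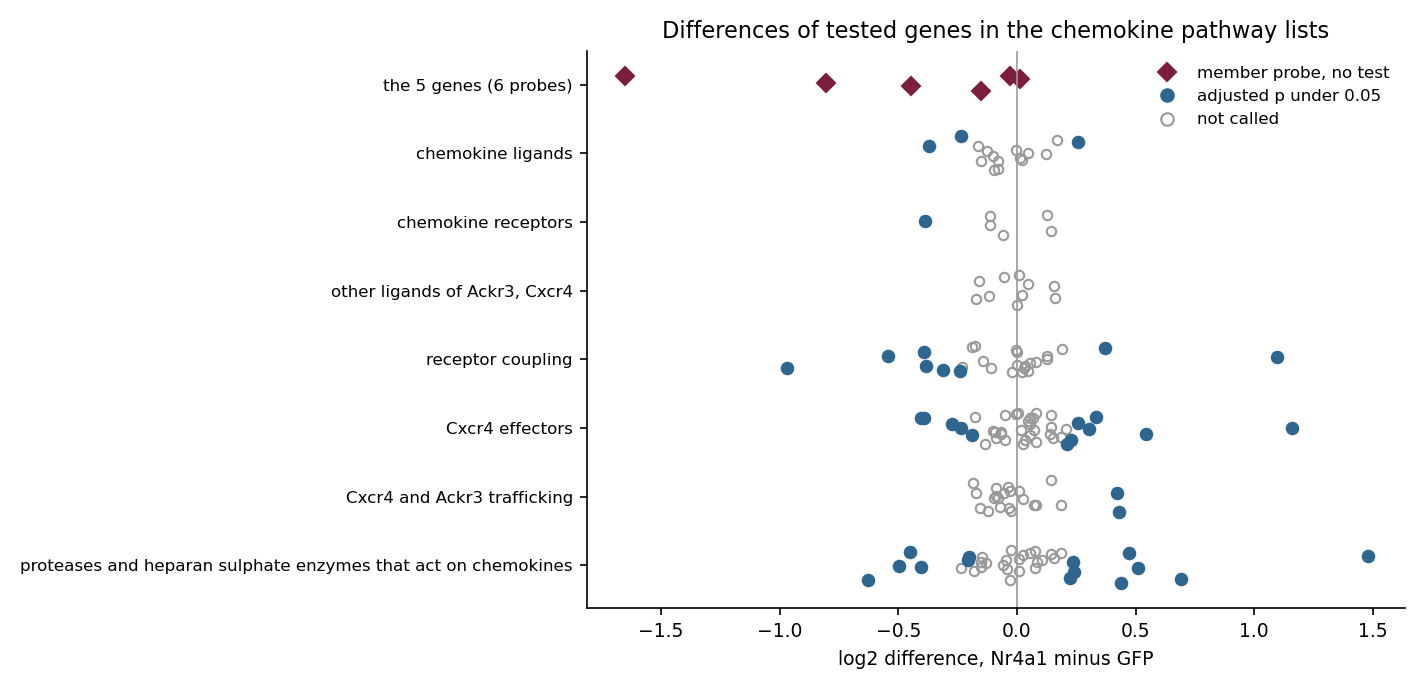
Log2 difference (Nr4a1 minus GFP) of every tested gene in the 7 pathway lists (circles, filled where the limma adjusted p was under 0.05) and of the 6 probes of the 5 genes (diamonds, no test), with vertical scatter only to separate points. The Ackr3 diamond at -1.65 lies beyond the lowest value of the lists, -0.97 for Rgs14. The 5 genes were chosen by these differences, so their place beside the lists is a description only.

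Markers of cells that can express these genes were read on the same arrays. Over all marker lists, 18% of tested genes were called higher and 14.6% lower, against 12.9% and 11.5% of all features. In bulk RNA, fewer cells of a type and less RNA per cell cannot be told apart. Markers of neurons of the hippocampus were high against the reference, with list means of 3.44 to 3.56 on GFP arrays and 3.31 to 3.41 on Nr4a1 arrays for granule and pyramidal neurons, lower on every Nr4a1 array. Of the 15 tested genes of that list, 2 were called higher and 3 lower, led by Slc17a6, a vesicular glutamate transporter, at 0.59 and by Calb1, a calcium buffer, at -1.25. Interneuron markers had list means of 2.52 to 2.74 and 2.59 to 2.68, with 3 of 19 called higher and 4 lower. Examples were the transcription factor genes Dlx1 at 0.41 and Sp8 at 0.81, whose second probe differed by -0.62. The receptor genes Kit (-0.51) and Htr3a (-0.49) were lower. The calls of Slc17a6 and Kit were lost with Agilent's processed ratio. That of Kit was also lost with an offset of 10, and that of Sp8 with the mean of its probes.

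Cajal-Retzius cells, the hippocampal cells best known for Cxcr4, had list means of 0.82 to 1.01 on GFP arrays and 0.87 to 1.00 on Nr4a1 arrays. Of their 8 markers, Nhlh2 (0.64) and Lhx5 (0.26) were called higher and Calb2 (-0.92) lower. These calls were lost with Agilent's processed ratio. That of Lhx5 was also lost without replicate 3 (0.20) or 4 (0.26) and with Cy5 signals alone. Lhx5 was well above background in Cy5 on 2 of 4 GFP and 3 of 4 Nr4a1 arrays, and in Cy3 on 0 of 8. The defining markers were not called, Reln differing by -0.10 ± 0.057 (SE, n = 4, limma adjusted p = 0.231) and Trp73 by 0.077 ± 0.068 (adjusted p = 0.450). Their part in the Cxcr4 difference was not tested.

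Mean levels of the microglial, vascular and fibroblast lists lay below the reference. Those for microglia were -1.93 to -1.84 on GFP arrays and -2.03 to -1.92 on Nr4a1 arrays, with P2ry12 and C1qc not well above background on any array. Of 9 tested microglial genes 1 was called, Csf1r, at -0.75 ± 0.074 (SE, n = 4, limma adjusted p = 8.03e-05), and its other probes differed by -0.40 and -0.038. Endothelial means were -1.67 to -1.57 and -1.56 to -1.44, higher on every Nr4a1 array. Of 5 tested genes 1 was called, Flt1, at 0.58, while Pecam1 (-0.026), Cldn5 (0.039) and Ly6c1 (0.077) differed little. Of 12 markers, 6 were not well above background on any array, Cdh5, Tek, Tie1, Esam, Emcn and Slco1a4. For Kdr, a vascular receptor gene, the probe used differed by -0.031 and was not called, while a second probe differed by 0.93 ± 0.065 (SE, n = 4). Pericyte and meningeal fibroblast means were -2.37 to -2.28 and -2.48 to -2.36, with Cspg4 higher (0.43) and the matrix genes Lum (mean -0.14 on GFP and -1.14 on Nr4a1 arrays) and Dcn (difference -0.59) lower among 12 tested. Vtn and Abcc9 were not well above background on any array.

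Mean levels of both glial lists lay above the reference. Astrocyte means were 3.16 to 3.31 and 3.24 to 3.39, with 3 of 12 called higher. Among them were the water channel gene Aqp4 at 0.43 and the gap junction gene Gja1 at 0.37. The Gja1 call was lost with Agilent's processed ratio. The Aqp4 call was lost with Agilent's processed ratio (-0.10), the authors' deposited table (0.094), an offset of 10 (0.34), the mean of its probes (0.26), all spots kept (-0.21) and slide as a random block (0.39), and its second probe differed by 0.092. Oligodendrocyte lineage means were 1.16 to 1.32 and 1.44 to 1.46, higher on every Nr4a1 array. Of 9 genes, 4 were called higher, among them Pdgfra at 0.75, and 2 lower, Mbp at -0.94 and Mag at -0.21. Mag was not called without replicate 1 (-0.20), 2 (-0.16) or 3 (-0.22). Its call was also lost with median centring, Agilent's processed ratio, an offset of 10 and Cy5 alone. The same held without the pair block or the detection filter. Of the 29 marker genes called in all lists, 25 were not called with all spots kept, 29 were not with slide as a random block and 13 kept their call under every other setting. The part of these cell types in the Ackr3 and Cxcr4 differences was not tested.

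The named genes whose log2 ratios over the 8 arrays followed each member most closely were ranked by Pearson's r among 14980 genes. These values share arrays and, for the receptors, fall into separate GFP and Nr4a1 clusters, so they describe likeness only. For Ackr3 the nearest were Lsm11 (0.998), Ccdc68 (0.997), Slc1a6, Ehd1 and Ccdc88b (0.995), with differences between -1.45 for Ccdc68 and -0.52 for Ehd1. For Cxcr4 they were Mdh1b (0.992), Pvt1, Icosl, Nubp2 and Tedc2 (0.986). Neither receptor was among the 5 nearest of the other. Cxcl12 went with Acta2 (0.989), Cd74, Ifitm2, B3galt5 and Oasl1 (0.971), Cxcl14 with Selenom (0.921), Gm11595, Tmem117 and Tmem35a (0.908), and Cx3cl1 with Rybp (0.984), Ttpal, Dynll2, Lrrc47 and Ptprn2 (0.966).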

How the data were processed

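Scanner files of 8 2-colour arrays were used, whose headers name Agilent Feature Extraction, version 11.0.1.1. They give linear median signal and background intensities per spot, deposited by the authors, and the software's log10 ratio of Cy5 over Cy3, also per the file headers. The authors' deposited value table holds log2 values for 24275 probes. Its scale and direction are not stated, and it was read as log2 of sample over reference from correlations of 0.998 to 1.00 and slopes of 0.992 to 1.01 with the scanner ratios. Column medians were 0.0240 to 0.0312, and its centring is unknown. The submitters' processing notes name limma without a version.

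Arrays held 43020 non-control spots. Median signals were 137 to 194 in Cy5 and 141.5 to 154 in Cy3, over backgrounds of 29 to 32, and 60.9% to 69.2% of spots were well above background in Cy5. The number of arrays limits the precision. Background was corrected with normexp (offset 50) after leaving out spots with a non-uniform local background, of which Nr4a1 replicate 2 had 37. Ratios were loess-normalised within arrays. Probes were named through RefSeq (GRCm38.p6), 26581 with a symbol and 12848 without. A gene was represented by its probe of highest mean Cy5 signal, and it entered the fit with a Cy5 signal well above background on 4 or more of 8 arrays and 3 values per group. Differences were fitted two-sided in limma 3.58.1 (R 4.3.3) with a fixed pair term, and p-values were adjusted by Benjamini-Hochberg over 21116 features. The fit was tested on simulated data with independent noise on each array and no pair or slide effect. That test therefore does not cover differences between slides. The pair tag of the labels is the ground for the block. Deviations from group means correlated at -0.10, 0.28, -0.016 and 0.43 within pairs 1 to 4.

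The 5 genes, the lists and the markers were chosen with earlier results of these data known. Named genes are the 5 genes, Nr4a1, the called genes of the ligand and receptor lists, up to 4 in each direction of the other pathway lists and up to 2 of each marker list, and the 5 genes most like each member. A few further genes were picked once values were known, and a few genes that the rule names are not reported here. Alternatives cover background, normalisation, filters, probes, blocks and left-out pairs.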

Additional observations from a re-analysis of the deposited data

Results flagged for a closer look

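Of 14 groups of 4 arrays examined (the 6 probes and Nr4a1, each in GFP and Nr4a1 cultures), 3 held an array whose gap to its nearest neighbour exceeded Dixon's critical share of the whole range for groups of this size. Chance alone flags about 1 in 20 groups. Ackr3 in GFP replicate 4 was the highest of its group at -0.3105, with a gap of 0.841 of the range. The Cxcl12 probe A_51_P172502 in GFP replicate 2 was the lowest of its group at -5.3592, with a gap of 0.915 of the range. Cxcl14 in GFP replicate 3 was the highest of its group at 3.8036, with a gap of 0.891 of the range.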

How the results depend on the processing

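The Ackr3 difference (-1.65) moved by more than its replicate spread to -2.05 with Agilent's processed ratio, -1.84 with an offset of 10, -1.43 with all spots kept and -1.99 with Cy5 alone. Over all features the calls (2714 higher, 2433 lower) became 1511 and 1350 with Agilent's ratio, 128 and 97 with all spots kept, 8 and 4 with slide as a random block (within-slide correlation 0.863) and 3464 and 1262 where loess was replaced by median centring. That centring moved the median of all features from -0.0035 to 0.059. Leaving out a pair gave 1765 to 2581 higher and 1618 to 1976 lower, the lowest of both without replicate 1. Pathway list calls (20 higher, 20 lower) became 13 higher with Agilent's ratio, 3 and 1 with all spots kept, 0 and 0 with the slide block and 12 lower with median centring. They became 32 lower in the authors' deposited table and 34 lower with Cy5 alone. Without the replicate block, 2353 features were higher and 2123 lower, and 17 and 18 pathway genes were. Signs turned for Aqp4 (-0.1024 with Agilent's ratio, -0.2099 with all spots kept), Olig2 (-0.2309 and -0.1269), Neurod6 (0.0390 with Agilent's ratio), Mag (0.1598 with Cy5 alone), Mmp3 (0.0723) and Sox10 (-0.1040), the last pair with all spots kept. The cause of these shifts was not tested. Signal over background limits Cxcr4, whose Cy5 fell to 70 over a background of 31.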
